A study of Mus with 17 samples.

Results

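Neferine was added to a continuous angiotensin II treatment, and RNA of the abdominal aorta was compared between mice that received both and mice that received angiotensin II alone. The comparison holds 12 of the 17 samples of the series, chosen by their titles: 6 with angiotensin II at 500 ng/kg/min and neferine at 1 mg/kg/day (called neferine here), and 6 with angiotensin II at the same dose and double distilled water (AngII). The other 5 samples, given saline and double distilled water (Control), are shown beside them. All mice were wild-type C57BL/6 animals treated for 42 days. The labels give no age or sex and do not say how many animals make up a sample. The tests therefore use the spread between samples, part of which may be technical. Angiotensin II came with every neferine sample, and no sample received neferine alone.

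Angiotensin II is the effector peptide of the renin-angiotensin system. It constricts arteries through its type 1 receptor on smooth muscle cells, and long exposure raises blood pressure and is known to thicken and stiffen the arterial wall. Neferine is a bisbenzylisoquinoline alkaloid from the seed embryo of the lotus. The study concerned its effect on vessels and on the blood pressure raised by angiotensin II. In whole aorta, smooth muscle, endothelium, fibroblasts, immune cells, perivascular fat and blood can all add RNA, and fewer cells of a type cannot be told apart from less RNA per cell.

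The files name transcripts by Ensembl identifiers or by assembled identifiers (MERGE, a locus number and an isoform number) and do not pair either with genes. None of the identifiers matched the gene table at hand (0 matches), so the aortic cell types could not be checked against their markers, and genes, positions and sequences are not given. An assembled identifier still groups isoforms by locus, and this structure is used below. The AngII files list 43752 transcripts and the neferine files 41642. Of the 39614 in all 12 files, 28316 carry Ensembl identifiers and 11298 are assembled. Treatment and file set cannot be told apart, because every neferine library belongs to one set and every AngII and Control library to the other.

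The median Spearman rho across shared transcripts was 0.644 over the 15 pairs of AngII libraries, 0.673 over the 15 pairs of neferine libraries and 0.657 over the 36 pairs across groups, so libraries of one group were about as similar to the other group as to each other. Transcripts at 0 made up 7.25% ± 4.58 (SD, n = 6) of the shared transcripts in the AngII libraries, against 6.97% ± 1.81 (SD, n = 6) in the neferine libraries (two-sided exact permutation test, adjusted p = 0.957). AngII replicate 6 stood apart, with a median rho of 0.452 with the other 11 libraries and 16.4% of transcripts at 0. The 10 highest transcripts took 31.0% of the shared signal in AngII replicate 2 and 29.0% in neferine replicate 1, against 10.6% to 21.5% in the others. The files hold no counts, so the number of reads is unknown. Low values of the same transcript repeat in steps between libraries, and the commonest ratio of AngII replicate 5's values to those of another library lay between 0.98 and 1.11 over the libraries, so that one such step was worth about the same in all of them.

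No single transcript passed the test between neferine and AngII. Of 29983 transcripts, limma called 0 (0% of those tested) at a Benjamini-Hochberg adjusted p under 0.05. An exact rank sum test called nothing: its lowest p with 6 against 6 is 0.00216, which after adjustment was 0.821 for transcripts whose groups did not overlap. That adjusted value depends on how many transcripts separate completely. At an unadjusted p under 0.05, limma gave 871 transcripts higher (2.9%) and 693 lower (2.31%) with neferine, 5.22% of all. The split by identifier was similar: 3% of the 21957 Ensembl transcripts were higher and 2.22% lower, and 2.65% of the 8026 assembled transcripts were higher and 2.57% lower. The 6 neferine and 6 AngII values did not overlap in 79 transcripts (0.263%), of which 49 were higher (0.163%) and 30 lower (0.1%) with neferine. Such transcripts made up 0.278% of the Ensembl and 0.224% of the assembled ones.

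The missing calls do not show that the groups are equal, since the intervals are wide. The median absolute difference was 0.236 on the log2(value + 1) scale, and the median half-width of the 95% interval was 0.717. For 15140 transcripts (50.5%) the whole interval lay between -1 and 1. The other intervals reach beyond -1 or 1. Intervals wholly between -1 and 1 were rarest at a mean of 2 to 10, with 39.4% of 12177 transcripts. At a mean of at least 50 the share was 58.0% of 1149, and under 2 it was 59.3% of 12237. The added 1 shrinks differences between low values, so the share under a mean of 2 does not measure better precision. The share of transcripts with an unadjusted p under 0.05 went from 4.69% below a mean of 2 to 6.18% at 50 and over. The median within-group SD on this scale was 0.614 in AngII and 0.520 with neferine. Without AngII replicate 6 the AngII value was 0.485, and without neferine replicate 1 the neferine value was 0.448.

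**Figure D1:**
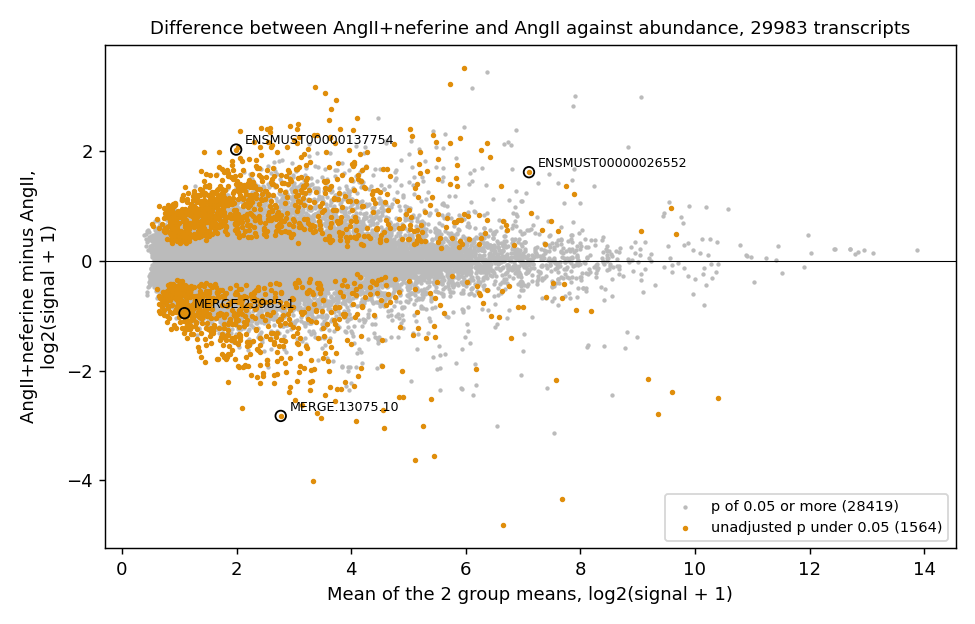
Each point is 1 of the 29983 transcripts: the horizontal axis gives its abundance and the vertical axis its difference between neferine and AngII, both on the log2(signal + 1) scale. The 1564 transcripts with an unadjusted p under 0.05 lie on both sides of 0, and circles mark the 4 described in the text.

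The named transcripts are those with the smallest p in each direction, outside the ones an earlier account of these data had named. ENSMUST00000026552 was the most abundant of them. Its AngII values were 41.3, 67.8, 61.1, 57.7, 62.9 and 69.7 in replicates 1 to 6, and its neferine values were 378, 142, 117, 95.1, 174 and 372. Every neferine library lay above every AngII library, and replicates 1 and 6 lay far above the other neferine libraries. The Control values, 48 to 98.3, overlapped with both groups. The difference was 1.62 ± 0.321 (SE) on the log2(value + 1) scale and did not pass (limma, adjusted p = 0.331, 0.139 to 0.999 over its alternatives).

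ENSMUST00000137754 was listed at 0 in AngII replicates 1, 3, 4 and 5, at 0.735 in replicate 2 and at 4.26 in replicate 6. With neferine its values were 9.14, 4.18, 4.24, 3.51, 4.55 and 5.16 in replicates 1 to 6. All neferine libraries thus held the transcript, and the groups overlapped only through AngII replicate 6. Control values ran from 0 to 2.52. The difference of 2.03 ± 0.419 (SE) on the log2(value + 1) scale did not pass with all libraries (limma, adjusted p = 0.379). Without AngII replicate 6, the library that stands apart, it was 2.40 and passed (limma, adjusted p = 0.0138, against 0.0138 to 0.999 over its alternatives).

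MERGE.23985.1, the only isoform of its locus listed in both file sets, was a low transcript. In AngII it was at 2.31, 1.1, 2.53, 1.31, 1.52 and 2.15, and with neferine at 0.351, 0.578, 0.227, 0.3, 0.611 and 0.566. The groups did not overlap. Control values, 0.358 to 1.05, overlapped with the neferine values and lay below all AngII values. The difference was -0.953 ± 0.174 (SE) on the log2(value + 1) scale, which did not pass (limma, adjusted p = 0.331, 0.068 to 0.999 over its alternatives).

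MERGE.13075.10 was at 9.11, 6.09, 10.9, 6.62, 15.8 and 11.7 in AngII. With neferine it was listed at 0 in replicates 1, 4, 5 and 6, at 0.0165 in replicate 3 and at 9.71 in replicate 2. A single neferine library thus had an AngII-like value, and the other 5 were at or near 0, as were 4 of 5 Control libraries, with the fifth at 2.84. The difference of -2.83 ± 0.543 (SE) on the log2(value + 1) scale did not pass (limma, adjusted p = 0.331). Without neferine replicate 2 it was -3.40 and passed (limma, adjusted p = 0.00105, against 0.00105 to 0.999 over its alternatives). That fit leaves out the only neferine library that goes against the difference, so its pass adds no support. As a library, neferine replicate 2 did not stand apart. Its median rho with the other 11 libraries was 0.682, and 5.21% of its transcripts were at 0.

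**Figure D2:**
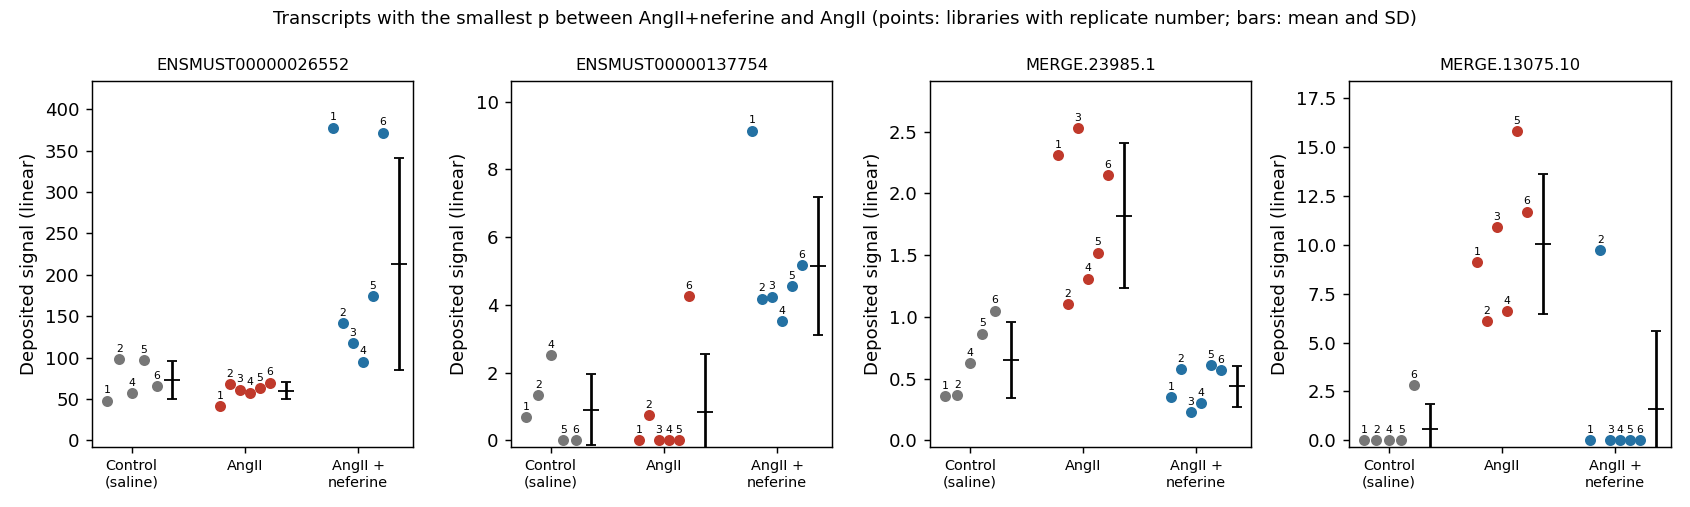
Deposited signal of the 4 named transcripts in every library, by group, with replicate numbers, on linear axes; the bars give the mean and SD, ending at the lower axis where they would go below it. ENSMUST00000026552 and MERGE.23985.1 separate AngII from neferine completely, while AngII replicate 6 and neferine replicate 2 make the overlap in the other panels.

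Isoform use was then compared within assembled loci, where the signal of a locus can go to one or another isoform. Alternative promoters, splice sites and ends let one gene make several RNAs. Short reads often fit more than one of these RNAs and are divided between them by estimation. The share of each isoform in its locus was tested for 2964 isoforms of 930 loci with a locus sum of at least 1 in each of the 17 libraries. This comparison was chosen after the data were seen. Shares and locus sums cover only isoforms listed in both file sets, so signal of isoforms listed in a single set is left out. Limma on arcsine square root shares called 5 isoforms (0.169%) of 3 loci, 1 with a higher and 4 with a lower share with neferine. An unadjusted p under 0.05 was found for 150 shares (5.06%), 77 of them higher (2.6%) and 73 lower (2.46%). Groups did not overlap for 11 shares (0.371%), 5 higher (0.169%) and 6 lower (0.202%).

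The locus MERGE.9086 held 3 of the 5. Its isoforms MERGE.9086.7 and MERGE.9086.8 held 69.4% ± 4.58 and 24.3% ± 2.64 (SD, n = 6) of the locus signal in AngII. Both were listed at 0 in all 6 neferine libraries, where MERGE.9086.6 held the whole signal of the shared isoforms. The share of MERGE.9086.6 was 11.8%, 1.22%, 9.53%, 2.29%, 10.5% and 2.13% in AngII replicates 1 to 6. The groups did not overlap for any of the 3 shares. Limma gave adjusted p of 0.013 for isoforms 6 and 7 and 0.025 for isoform 8. Isoforms 6 and 7 passed under 20 of 23 alternatives and isoform 8 under 11. With neferine the shares have no spread, which lowers these p. One of the 23 alternatives, the exact rank sum test, passed no share, since complete separation gave an adjusted p of 0.583. Without AngII replicate 2 none of the 3 passed (limma, adjusted p = 0.0501 for isoforms 6 and 7 and 0.0673 for isoform 8).

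Control showed both states of this locus. MERGE.9086.6 held 100% in Control replicates 4 and 6, 2.09% and 3.10% in replicates 1 and 5, and 42.4% in replicate 2. Control replicates 4 and 6 belong to the file set that also holds AngII. Whether the file set bears on the difference at this locus was not tested. The mean level of MERGE.9086.6 itself was 1.89 ± 2.45 (SD, n = 6) in the AngII libraries and 2.06 ± 0.620 (SD, n = 6) in the neferine libraries. Its log2 difference of 0.385 ± 0.508 (SE) did not pass (limma, adjusted p = 0.968). Its AngII values ran from 0.159 to 6.71, so this does not show equal levels. The sum of the locus was 15.7, 13.1, 15.5, 14.2, 64.1 and 36.6 in AngII and 1.35 to 2.93 with neferine. It was thus lower in every neferine library, by the signal of the isoforms at 0. Its difference of -2.93 ± 0.486 (SE) on the log2(value + 1) scale did not pass with all libraries (limma over 5368 loci, adjusted p = 0.0771, 0.0215 to 0.775 over its alternatives). It passed under 7 of 29 alternatives, among them without AngII replicate 6 (limma, adjusted p = 0.0342), without Control replicate 4 (0.0278) and without Control replicate 6 (0.0311). Control libraries enter this test only through the spread shared by the groups.

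MERGE.13075.10, described above, was also called by its share (limma, adjusted p = 0.0265). It held 90.7% to 97.6% of its locus in all 6 AngII libraries. With neferine it held 96.9% in replicate 2 and at most 0.197% in the other 5, and in Control 20.6% in replicate 6 and 0% in the others. The signal went to different isoforms in the other neferine libraries: MERGE.13075.12 held 100% in replicates 1 and 4 and 73.0% in replicate 3, and MERGE.13075.8 held 91.0% in replicate 5 and 57.2% in replicate 6. The locus sum was 10.7 ± 3.85 (SD, n = 6) in the AngII libraries and 8.41 ± 4.02 (SD, n = 6) in the neferine libraries, a log2 difference of -0.38 with a 95% interval from -1.03 to 0.268. The share passed under 7 of 23 alternatives (limma, adjusted p = 2.24e-07 to 0.896). The lowest of these p came without neferine replicate 2, the library that goes against the difference. It did not pass when any single AngII library was left out (limma, adjusted p = 0.0673 to 0.0883).

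MERGE.43768.4 was the last of the 5 (limma, adjusted p = 0.0265). Its share was 56.7%, 52.3%, 59.3%, 70.5%, 54.8% and 37.7% in AngII and 0%, 9.7%, 16.4%, 9.06%, 12.6% and 29.2% with neferine. The groups did not overlap, with AngII replicate 6 and neferine replicate 6 nearest to each other. Control shares ran from 5.89% to 33.6%. The locus sum was 7.05 ± 2.39 (SD, n = 6) in the AngII libraries and 6.66 ± 1.56 (SD, n = 6) in the neferine libraries, a log2 difference of -0.0451 with a 95% interval from -0.554 to 0.463. The share passed under 9 of 23 alternatives (limma, adjusted p = 0.00989 to 0.914) and not without AngII replicate 1, 2, 3, 4 or 5 (limma, adjusted p = 0.0673 to 0.0883).

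**Figure D3:**
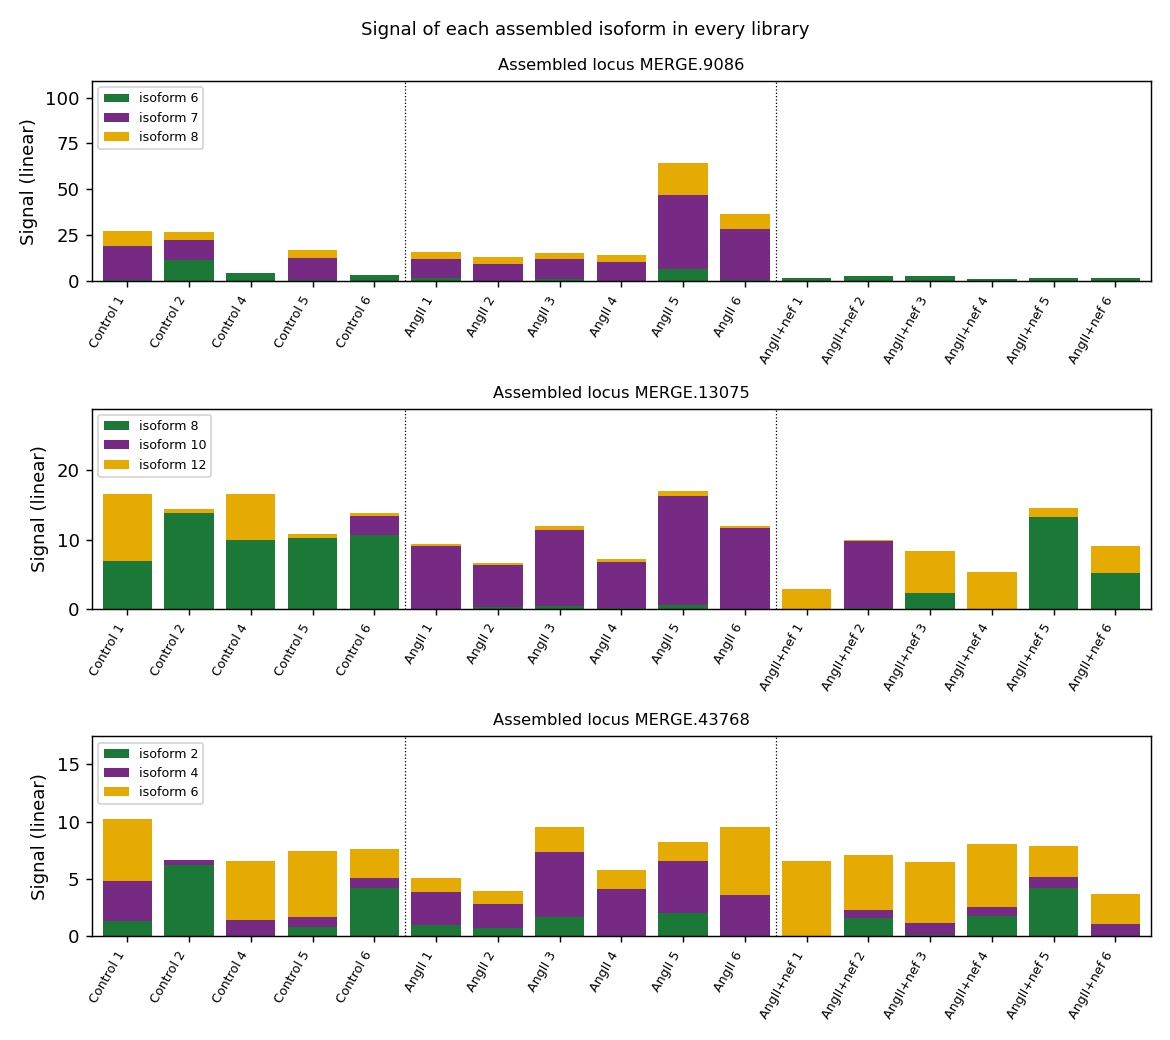
Stacked bars give the deposited signal of each assembled isoform in every library, with dotted lines between Control, AngII and neferine. MERGE.9086 shows isoform 6 alone in the 6 neferine libraries and in Control replicates 4 and 6, and MERGE.13075 shows isoform 10 in the AngII libraries and in neferine replicate 2.

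Sums over the shared isoforms of a locus do not depend on how signal is divided among those isoforms. They leave out isoforms listed in a single file set. Limma gave 0 calls among the sums of 5368 assembled loci (0%). The exact rank sum test called none, since complete separation gave an adjusted p of 0.775, which is also the upper end of the range of alternatives for MERGE.9086 and MERGE.50557. At an unadjusted p under 0.05 limma gave 115 loci higher (2.14%) and 151 lower (2.81%) with neferine. These make up 4.96% of the loci. The groups did not overlap in 15 loci (0.279%), 9 higher (0.168%) and 6 lower (0.112%) with neferine.

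By the smallest p in each direction the loci are MERGE.9086 and MERGE.9452, lower with neferine, and MERGE.50557 and MERGE.23605, higher. The last 3 have a single isoform listed in both file sets, so their sums are the values of that transcript. MERGE.9452 was at 10.9, 15.6, 27, 18.6, 16.7 and 19.3 in AngII and at 10, 6.94, 8.63, 5.91, 4.85 and 6.05 with neferine. The groups did not overlap, although neferine replicate 1 lay just below AngII replicate 1, and Control ran from 4.28 to 6.59. Its difference was -1.23 ± 0.229 (SE) on the log2(value + 1) scale (limma, adjusted p = 0.0774, 0.0319 to 0.992 over its alternatives). With AngII replicate 2, AngII replicate 6 and neferine replicate 1 left out it passed (limma, adjusted p = 0.0435). Tested among all 29983 transcripts, the same values, as MERGE.9452.1, did not pass (limma, adjusted p = 0.306).

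MERGE.50557 was at most at 0.0113 in the AngII libraries. With neferine it was at 2.35, 3.5, 1.2, 2.13, 3.49 and 7.79. All neferine libraries thus held signal that the AngII libraries nearly lacked. In Control, replicates 4 and 6 were at 2.84 and 1.85 and the others at 0.00561 or less, so that both states occurred there, in the same 2 libraries in which MERGE.9086.6 held its whole locus. The difference of 1.99 ± 0.363 (SE) on the log2(value + 1) scale did not pass (limma, adjusted p = 0.0774, 0.0215 to 0.775 over its alternatives). It passed under 3 of 28 alternatives: AngII and neferine fitted alone (limma, adjusted p = 0.0215), library weights (0.0355) and without Control replicate 4 (0.0278). Without Control replicate 6 it did not pass (limma, adjusted p = 0.0921). Control libraries enter this test only through the spread shared by the groups. Tested among all 29983 transcripts, the same values, as MERGE.50557.3, had an adjusted p of 0.331 (limma).

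MERGE.23605 was at 0.0881, 0.0119, 13.2, 0.0261, 1.29 and 0 in AngII and at 12.4, 10.1, 23.3, 14.6, 14.9 and 21.6 with neferine. AngII replicate 3 lay among the neferine libraries and the other 5 far below them. Control was at 21.4 in replicate 4 and at most at 1.05 in the others. The difference of 3.18 ± 0.74 (SE) on the log2(value + 1) scale did not pass (limma, adjusted p = 0.45, 0.0586 to 0.93 over its alternatives). Tested among all 29983 transcripts, the same values, as MERGE.23605.1, had an adjusted p of 0.535 (limma).

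Leaving out AngII replicate 6 changed the outcome for a set of assembled transcripts. Limma then called 11 transcripts (0.0367%), 1 higher and 10 lower with neferine. With AngII replicate 2 and neferine replicate 1 also left out it called 15 (0.05%), 9 of which were among the 11. These 9 were ENSMUST00000137754, higher with neferine, and 8 assembled transcripts, all lower. Each of the 8 was the only isoform of its locus listed in both file sets. The 8 were chosen after their values were seen, so they are described without a further test. Their differences without AngII replicate 6 lay between -1.40 and -1.03 on the log2(value + 1) scale, and with all libraries between -1.20 and -0.676 (limma, adjusted p = 0.331 to 0.952).

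The 8 transcripts varied together. Over the 17 libraries Pearson's r of their log2(value + 1) lay between 0.777 and 0.985 in the 28 pairs, a description over libraries that fall into 3 groups. Their summed signal was 1769.6, 1507.2, 2569.6, 1754.4 and 1538.6 in AngII replicates 1 to 5 and 340.2 in replicate 6. With neferine it was 915.9, 730.3, 897.7, 753.4, 621.6 and 708.1. All 8 were higher in each of AngII replicates 1 to 5 than in any neferine library and than in any Control library. AngII replicate 6 lay below every neferine library in 6 of them and below every Control library in 7. Over all 29983 transcripts, the groups without replicate 6 did not overlap in 84 that were higher (0.28%) and 85 that were lower (0.283%) with neferine.

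The sum was 771.2 ± 114.3 (SD, n = 6) with neferine and 767.4 ± 145.3 (SD, n = 5) in Control. In AngII it was 1827.9 ± 431.7 (SD, n = 5) over replicates 1 to 5, 2.37 times the neferine mean, and 1579.9 ± 719.7 (SD, n = 6) with replicate 6 included. The most abundant of the 8, MERGE.30131.1, had a mean of 522 over AngII replicates 1 to 5, 77.7 in replicate 6, and means of 230 with neferine and 228 in Control. The sum took 0.289% to 0.636% of the shared signal in AngII replicates 1 to 5 and 0.140% to 0.207% with neferine. Whether the 8 come from one kind of RNA was not tested, since no sequence or position is given for them. The low value of replicate 6 goes with its low similarity to other libraries and its many transcripts at 0. The part of these in the result was not tested.

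**Figure D4:**
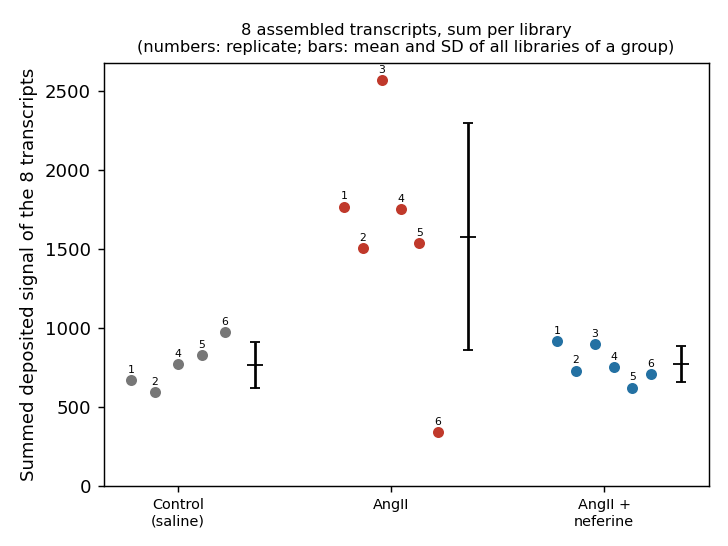
Summed deposited signal of the 8 assembled transcripts in each library, on a linear axis from 0, with the mean and SD of all libraries of a group. AngII replicates 1 to 5 lie at 1507.2 and above and AngII replicate 6 at 340.2, below the 6 neferine libraries, which lie between 621.6 and 915.9.

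Among abundant transcripts, most large differences came with values near 0 in some library. With a mean of at least 50 over the 12 libraries, 33 transcripts differed by more than 2 on the log2(value + 1) scale, 16 lower and 17 higher with neferine. In 26 of the 33 at least 1 of the 12 libraries was under 1. How often this held among all 1149 transcripts of that abundance was not counted. The groups did not overlap in 1 of the 33, against 79 (0.263%) of all 29983 transcripts tested. None of the 33 passed (limma, lowest adjusted p = 0.379).

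Of these 33, 4 Ensembl transcripts were lower with neferine and present in every library. They tended to vary together, with Pearson's r of log2(value + 1) from 0.62 to 0.993 in 6 pairs over 17 libraries. Their summed signal was 5260.1, 1441.7, 1665.2, 14783.7, 972.2 and 12137.3 in AngII and 937.4, 864.9, 924.3, 164.3, 557.4 and 614.7 with neferine. In the sum every neferine library lay below every AngII library, but for each of the 4 singly the groups overlapped. The AngII sums themselves differed widely, with replicates 1, 4 and 6 far above the others. Different members made these high sums. In replicate 4 ENSMUST00000023934 was at 8410 and ENSMUST00000098192 at 3947. In replicate 6 ENSMUST00000093209 was at 4806 and ENSMUST00000093207 at 4375. The last was at 307.4 and 332.8 in replicates 1 and 4, below its 370.9 and 431.2 in replicates 2 and 3. Control ran from 240.6 to 2705.1 and overlapped with both groups. The mean was 6043.4 ± 6003.4 (SD, n = 6) in the AngII libraries and 677.2 ± 298.4 (SD, n = 6) in the neferine libraries. Singly, the 4 differed by -2.79 to -2.15 on the log2(value + 1) scale, and none passed (limma, adjusted p = 0.737 to 0.863). The 4 were picked after their values were seen, and the sum was not tested.

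Transcripts at 0 throughout one group were counted last. Of the 39614 shared transcripts, 30 were at 0 in all 6 neferine libraries with an AngII mean of at least 1. Another 3 were at 0 in all 6 AngII libraries with a neferine mean of at least 1. How the authors chose the rows of each file set bears on both counts and cannot be told apart from the treatment here. Of the 29983 tested transcripts 502 had an AngII mean under 0.5 and 642 a neferine mean under 0.5.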

How the data were processed

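RNA-seq of mouse abdominal aorta was analysed in 17 libraries (5 Control, 6 AngII, 6 neferine). Per the labels' protocols, ribosomal RNA was depleted before library construction. The deposited values are a linear signal per transcript, 1 column per library, whose unit the file headers do not name. Aligner, assembler, quantifier, build and annotation: not given in the sources used here. Limma, with no version or purpose, is the tool in the submitters' processing notes. Groups and replicate numbers come from the titles.

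On log2(value + 1), limma 3.58.1 was run under R 4.3.3 (trended, robust moderation; 1 term per group; all 17 libraries in 1 fit), on transcripts reaching a value of 1 in 5 or more libraries, with Benjamini-Hochberg adjustment over all of them and a threshold of 0.05. The scripts were tested on simulated data. Locus sums, over isoforms listed in both file sets, were treated alike. Isoform shares, as the arcsine of the square root, were tested where the mean share lay between 5% and 95%. The ratio of low values used values under 0.05 in both libraries, in windows of 0.02 on the log2 scale. Without gene names, the 32 planned gene lists and the gene-level comparison could not be tested. Named transcripts were the 2 of lowest p per direction, with a mean of at least 1 in a group, that an earlier account had not named; the same number was taken for loci, and for isoforms all that passed. Other transcripts were picked after their values were seen, as the text says. The groups, lists and alternatives were chosen with earlier results of these data known. Replicate numbers were not taken as pairs, since the labels give no pairing.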

Additional observations from a re-analysis of the deposited data

Results flagged for a closer look

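Of 32 groups of 6 values, 10 held a library with an unusually wide gap to its neighbours; chance gives about 1 in 20. Several of the 10 concern the same libraries. AngII replicate 6 was far from its group in the share of transcripts at 0 (16.4%, next 6.91%), in its median Spearman rho (0.452, next 0.64) and in ENSMUST00000137754 (4.26, next 0.735). In the share of the 10 highest transcripts AngII replicate 2 was at 31% and the next library at 14.9%. AngII replicate 3 was at 13.2 in the locus sum of MERGE.23605, with the next library at 1.29.

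Among neferine libraries, replicate 1 was far from the others in its median rho (0.61, next 0.657) and in ENSMUST00000137754 (9.14, next 5.16). Replicate 2 stood alone in MERGE.13075.10, both in its signal (9.71, next 0.0165) and in its share of the locus (96.9%, next 0.197%). Replicate 6 was at 7.79 in the locus sum of MERGE.50557, with the next library at 3.5.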

How the results depend on the processing

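The number of transcripts called by limma, 0 in the report, was 2 when only AngII and neferine were fitted, 3 with library weights and 15 with 3 libraries (AngII replicate 2, AngII replicate 6, neferine replicate 1) left out together. Leaving out single libraries gave 0 to 11: 11 without AngII replicate 6, 1 each without neferine replicates 2 and 5, and 0 in the other 14 of 17 fits. The number of locus sums called, 0 in the report, was 2 with only those groups, 1 with a pseudocount of 0.1, 1 with a minimum of 5 in 6 libraries, 10 with library weights, 14 without the 3 libraries, and 0 to 10 without single libraries (10 without AngII replicate 6, 2 without Control replicate 4, 1 each without neferine replicate 1 and Control replicate 6). The number of isoform shares called, 5 in the report, was 3 with only those groups, 0 without the 3 libraries, and 0 to 5 without single libraries (0 without AngII replicate 2, 2 without each of AngII replicates 1, 3, 4 and 5 and neferine replicates 1, 3 and 5, 3 without neferine replicates 2 or 6, 4 without AngII replicate 6, and 5 otherwise). Without neferine replicate 4 the 5 shares called were 2 higher and 3 lower, so they were not the same 5. MERGE.43768.4 and MERGE.13075.10 did not pass there (limma, adjusted p = 0.0639 and 0.0708). The cause of these changes was not tested. The exact rank sum test gave 0 isoform shares. With 6 against 6 its lowest p of 0.00216 became 0.583 after adjustment, with complete separation in 11 of the 2964 shares. A share could therefore not pass by its own separation alone, without many others that separate. The same holds for transcripts and loci. Locus sums, isoform shares and their alternatives were added after the data were seen.

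No named transcript, locus or isoform reversed its direction. As a replicate block the numbers of the titles gave 3 isoform shares, all of MERGE.9086, and left the counts of transcripts and loci at 0. Deviations of same-numbered libraries correlated between -0.147 and 0.064, and 1 of 6 correlated best with its own number, so the numbers were not taken as pairs. Gene-level fits were not run for want of gene names. Other pseudocounts, filters and scalings were not run for isoform shares. With no counts, what depth limits could not be assessed.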

Other observations

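The neferine files list 2028 transcripts that the AngII files do not, 685 of them assembled. Their neferine means had a median of 0.663, 429 were at least 1, 28 at least 5, and the highest was 101. In 1117 of them no neferine library was at 0. The AngII files list 4138 transcripts that the neferine files do not. Of these, 180 had an AngII mean of at least 1, 20 of at least 5, and the highest was at 61.1. No difference between the groups can be computed for these transcripts.

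The rows of the neferine files are not in the order of identifiers. Across the 39614 shared transcripts, the row number correlated with the p of a limma fit of AngII and neferine alone with a Spearman rho of 0.684, against 0.14 for the row number in the AngII files. Transcripts are not independent replicates, and the order is not explained in the sources used here.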
